A study of Mus musculus with 52 samples.

Results

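The response of wild-type mouse astrocytes to medium conditioned by neurons was measured by RNA sequencing in 6 libraries of 52 in the series. They were taken by their labels: 3 libraries of wild-type astrocytes given neuronal conditional medium, against 3 of untreated wild-type astrocytes. All came from the C57BL/6 strain and stand in a table of 27 libraries of primary astrocytes, 3 in each of 9 groups, with the other 25 libraries of the series made from brain. Of the other 7 astrocyte groups, the ones used for comparison were wild-type astrocytes given medium of Apoe knockout neurons, Apoe knockout astrocytes given neuronal medium, Apoe knockout astrocytes left untreated, and wild-type astrocytes given oleic or palmitic acid. The titles of the libraries with neuronal medium carry the letters KA, and the labels do not say what had been done to the neurons that conditioned it. They also leave out the dose and duration of the medium and the age of the animals. The labels do not say that libraries of 1 group came from separate cultures or animals. The p-values below therefore rest on the spread between libraries of a group, pooled over all 9 groups, and that spread may be technical.

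Astrocytes buffer potassium, clear glutamate and supply lipids and metabolites to neurons, and they carry receptors for many of the factors neurons release. Medium conditioned by neurons is a way to expose astrocytes to those soluble factors without cell contact, and in culture it is known to favour a more differentiated astrocyte. Cultured astrocytes that spread on plastic also assemble actin stress fibres, under control of the serum response factor SRF and the coactivator YAP, and reactive astrocytes raise intermediate filament genes such as Gfap.

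Few transcripts changed. Of 53700 genes in the table, 16161 had at least 1 TPM (a transcript level per gene length, scaled to a common library total) in at least 3 of the 27 libraries and were tested with limma on log2(TPM + 1). At a Benjamini-Hochberg adjusted p under 0.05, 3 genes rose and 3 fell with neuronal medium, 0.0186% of the genes tested in each direction and 0.0371% in all. Mcidas, Deup1 and Sap30l rose. Aldh1a1, Tpm1 and the pseudogene Rpl28-ps1 fell. The count was small under every alternative run, between 0 and 30 genes, and it was 0 when the fit held only these 6 libraries, where 1504 genes had an unadjusted p under 0.05. With limma over all 27 libraries, 1031 genes (6.38%) had an unadjusted p under 0.05, 3.56% higher and 2.82% lower. The count was also 0 without the first or the third library with medium or the second untreated library, so none of the 6 calls held in every alternative.

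**Figure D1:**
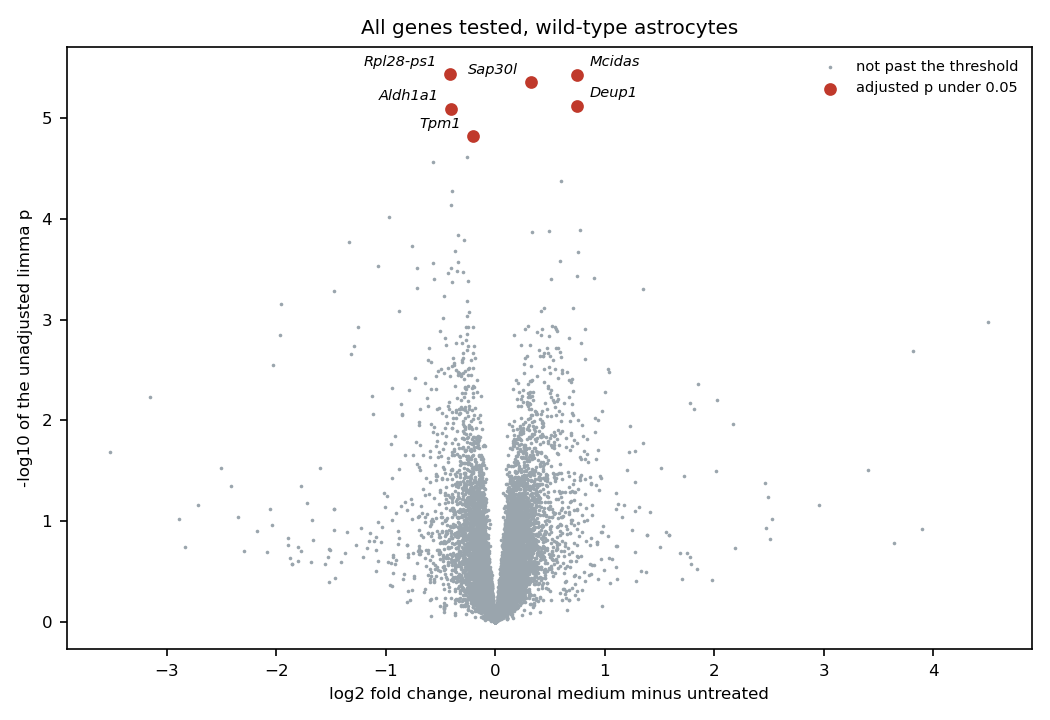
Each point is 1 of the 16161 genes tested in wild-type astrocytes, with its log2 fold change (neuronal medium minus untreated) on the horizontal axis and the -log10 of its unadjusted limma p on the vertical axis. The 6 genes past an adjusted p of 0.05 are red and named, and their changes lie between -0.42 and 0.75 on the log2 scale.

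Among the 8081 genes above the median level, 7989 (98.9%) had a 95% confidence interval of the log2 fold change between -1 and 1. Over all genes it was so for 15097 (93.4%), a share that also counts genes near or below 1 TPM, whose changes log2(TPM + 1) draws toward 0 and does not bound as folds. The median standard error was 0.133 on the log2 scale, from the spread pooled over all 9 groups, on which these intervals rest. It was 0.101 without the fatty acid groups and 0.0929 with only the groups compared. The root mean square log2 difference between a library with medium and an untreated library was 0.402 to 0.435 over 9 pairs, against 0.402 to 0.424 between libraries with medium and 0.408 to 0.425 between untreated libraries. The ranges between and within groups overlapped. For scale, libraries with neuronal medium lay 0.760 to 0.960 from libraries with oleic acid and 0.883 to 0.999 from libraries with palmitic acid.

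The cells carried the astrocyte markers of their label, at unlike levels. Slc1a2 was at 16.7 to 20.3 TPM with medium and 15.3 to 18.1 TPM untreated. Gfap stood at 1410.2, 1299 and 1225 TPM with medium and at 1080.2, 1206 and 1223 TPM in untreated cells, and none of the 9 astrocyte markers was under 1 TPM in all 6 libraries. Of 12 neuronal markers, 5 were under 1 TPM in all 6 libraries (Rbfox3, Snap25, Nefl, Dcx and Elavl3). Others were well above it, with Stmn2 at 277 to 306 TPM with medium and 305 to 335 TPM untreated, and Map2 at 92.4 to 99.3 TPM with medium and 84.4 to 96.7 TPM untreated. Microglial genes were present, with a summed level over 18 markers of 562 to 657 TPM with medium and 612 to 678 TPM untreated. Of 8 markers of the oligodendrocyte lineage, 1 was under 1 TPM in all 6 libraries (Mog). Olig1 was at 304 to 321 TPM with medium and 297 to 313 TPM untreated, and Olig2 at 65.4 to 75.2 and 71.56 to 73.15 TPM. Sox10 was low, at 1.47 to 2.71 TPM with medium and 1.87 to 2.13 TPM untreated. Of the markers of mural cells and fibroblasts, Acta2 and Tagln were abundant, as given with the actin genes below. Myh11 and Rgs5 were low, with Rgs5 at 0.66 to 1.09 TPM with medium and 0.96 to 1.16 TPM untreated. Of the 19 listed, 6 were under 1 TPM in all 6 libraries. Library totals over all 27 libraries were 985375 to 995304 TPM. TPM keeps no record of read depth, so the depth is unknown here, and fewer cells of a type cannot be told apart from less RNA per cell.

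Of the 3 genes that rose, 2 are genes of multiple motile cilia, the beating cilia of ependymal cells. Mcidas, also called multicilin, is the nuclear regulator that starts centriole amplification in such cells. Mcidas (chr13:112993845-113000394, mm10, plus strand, protein-coding) had 2.39, 1.41 and 1.54 TPM with neuronal medium, against 0.43, 0.64 and 0.86 TPM in untreated cells. Every library with medium was above every untreated library. Its log2 fold change was 0.75 ± 0.12 (SE; limma adjusted p = 0.0238), and the ratio of mean TPM was 2.77, because adding 1 TPM before the log understates changes at such levels. Mcidas met the filter on low values with libraries given medium, and every untreated wild-type library was under 1 TPM. With 0.1 TPM added in place of 1 TPM the log2 fold change was 1.34 and the limma adjusted p 0.438. Without the filter the adjusted p was 0.00662.

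Deup1 encodes a scaffold protein of the deuterosome, the structure on which these cells build their many centrioles. Deup1 (chr9:15559864-15627933, mm10, minus strand, protein-coding) had 4.16, 3.34 and 4.42 TPM with medium, against 1.35, 2.22 and 2.39 TPM untreated. The groups did not overlap. The log2 fold change was 0.75 ± 0.13 (SE; limma adjusted p = 0.026). With 0.1 TPM added in place of 1 TPM it was 0.99, with a limma adjusted p of 0.452. An annotated antisense gene, 4930540M03Rik, overlaps Deup1, and reads of the pair cannot be told apart where counting ignores strand, which the sources do not state.

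The bases before the starts of these genes are shown because each holds GTTGCC at the start shown, part of the X-box element bound by RFX factors of ciliated cells, marked in capitals (GGCAAC where it lies on the other strand). The motif was searched on both strands of the 250 bases before each start and lies in 10.4% of 32851 mouse promoters, so its presence is a description and no evidence of binding. Sequences are from RefSeq, build GRCm38.p6, 5′ to 3′ on the gene's strand, at chr13:112993618-112993867 (plus strand) for Mcidas and chr9:15627847-15627996 (minus strand) for Deup1. RefSeq has another start for Deup1, at chr9:15628307-15628456 (minus strand), whose window does not hold the motif.
Mcidas: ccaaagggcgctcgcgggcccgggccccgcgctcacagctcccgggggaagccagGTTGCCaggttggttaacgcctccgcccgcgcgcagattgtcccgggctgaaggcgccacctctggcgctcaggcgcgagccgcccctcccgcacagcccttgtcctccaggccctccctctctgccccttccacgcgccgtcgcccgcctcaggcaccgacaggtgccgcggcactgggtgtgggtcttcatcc
Deup1: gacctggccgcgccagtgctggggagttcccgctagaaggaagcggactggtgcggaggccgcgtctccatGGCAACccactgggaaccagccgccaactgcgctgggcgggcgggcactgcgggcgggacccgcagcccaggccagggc

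Other genes of the same pathway lay mostly on the same side without passing the threshold. A list of 22 genes of multiple motile cilia was put together after the values of Mcidas and Deup1 had been seen, and so it gets no test. Of its 20 members tested, 18 lay above 0, as did 58.7% of all genes tested, with a median log2 fold change of 0.24, beside 0.03 over all genes tested. Mcidas and Deup1 passed the threshold and the other 18 members did not. In 12 of the 20, every library with medium was above every untreated library, which was so for 8.66% of all genes tested. These counts include Mcidas and Deup1, whose values prompted the list. The shares of all genes stand beside them as a description and give the list no support.

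The upstream regulator Gmnc, which acts before Mcidas, had 7.71, 5.76 and 6 TPM with medium and 4.69, 4.72 and 6.05 TPM untreated, with overlapping groups and a log2 difference of 0.28 (limma adjusted p = 0.739). Ccno, a cyclin-family gene needed for centriole amplification, had 9.31, 6.24 and 6.38 TPM with medium and 3.95, 4.74 and 4.74 TPM untreated, a log2 difference of 0.59 ± 0.20 (SE; adjusted p = 0.507). Foxj1, the regulator of motile cilia, had 186, 162 and 158 TPM with medium and 131, 153 and 156 TPM untreated (log2 difference 0.20, adjusted p = 0.769). In all 3 genes the first library with medium was the highest of the 6.

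Structural genes of the cilium lay on the same side, none of them past the threshold. Ccdc40, which places the dynein arms along the axoneme, had 16.7, 16.1 and 14.7 TPM with medium and 6.96, 7.56 and 9.60 TPM untreated, with no overlap (log2 difference 0.90 ± 0.21, SE; adjusted p = 0.19). Tekt1, a filament protein of axonemal microtubules, had 8.94, 8.25 and 5.45 TPM with medium and 3.81, 4.76 and 5 TPM untreated (log2 difference 0.61, adjusted p = 0.395). Spag6l, of the central apparatus, had 15.8, 11.3 and 10.8 TPM with medium and 7.16, 8.06 and 10.1 TPM untreated (log2 difference 0.53, adjusted p = 0.478). The 2 members below 0 were Trp73, at -0.27, and E2f4, at -0.06.

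Markers of ependyma and choroid plexus, cell types that could be in such cultures, lay on the same side. Of 14 listed, 11 passed the filter on low values, 10 lay above 0 and none passed the threshold, with a median log2 fold change of 0.19. Of all genes tested 58.7% lay above 0. Foxj1, given above with the cilia genes, is a marker of ependyma too, so these markers are not separate from those genes. Their summed level was 323 to 363 TPM with medium and 267 to 325 TPM untreated, ranges that touch. Without the first untreated library, 7 of the 11 lay above 0, beside 9173 of the 16161 genes tested. The choroid plexus marker Ttr was at 6.51, 13.5 and 8.60 TPM with medium and 5.55, 7.74 and 6.51 TPM untreated. The part of these cells in the values of Mcidas and Deup1 was not tested.

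**Figure D2:**
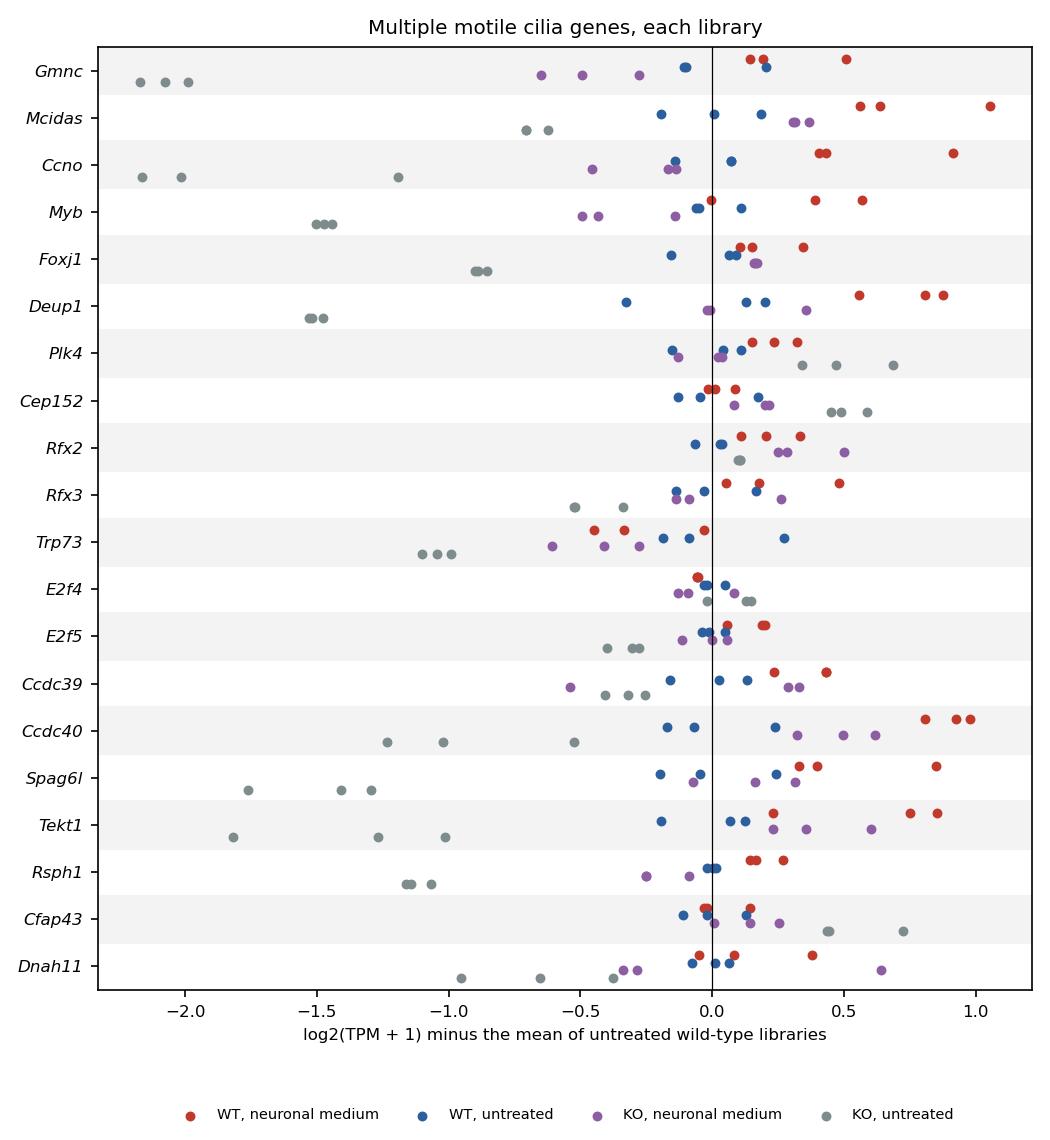
Each point is 1 library and each row 1 tested gene of multiple motile cilia, with log2(TPM + 1) minus the mean of the untreated wild-type libraries on the horizontal axis. Wild-type libraries with medium lie right of the untreated ones for Mcidas, Deup1 and Ccdc40, and untreated Apoe knockout libraries lie far left of those with medium for Gmnc, Ccno and Deup1.

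Sap30l encodes a subunit of the Sin3 histone deacetylase corepressor. Sap30l (chr11:57801637-57810217, mm10, plus strand, protein-coding) had 31.2, 31.8 and 35.7 TPM with medium, against 26.3, 26.8 and 25.1 TPM untreated. The groups did not overlap, and the untreated libraries lay within 2 TPM of each other. The log2 fold change was 0.32 ± 0.05 (SE; limma adjusted p = 0.0238).

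Aldh1a1 encodes retinaldehyde dehydrogenase 1, which oxidises retinal to retinoic acid. Aldh1a1 (chr19:20492715-20643465, mm10, plus strand, protein-coding) had 291, 299 and 315 TPM with medium, against 412, 390.3 and 394 TPM untreated. All libraries with medium were below all untreated libraries. The log2 fold change was -0.40 ± 0.07 (SE; limma adjusted p = 0.026), a level 0.76 times that of untreated cells. The annotated genes C730002L08Rik and Gm6684 overlap Aldh1a1.

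Of 21 listed targets and enzymes of the retinoic acid and thyroid hormone pathways, 20 were tested and Aldh1a1 was the 1 that passed. The list, which mixes both pathways, had a median of 0.04, with 11 members above 0 and 9 below, and 4 of the 20 were lower at an unadjusted p under 0.05, as were 2.82% of all genes tested. Cyp26b1, which degrades retinoic acid, had 24.9, 27.7 and 26.6 TPM with medium and 34.6, 34.2 and 31.1 TPM untreated (log2 difference -0.32, limma adjusted p = 0.516). Aldh1a2, the second retinaldehyde dehydrogenase, had 3.65, 3.44 and 3.38 TPM with medium and 4.61, 4.61 and 4.17 TPM untreated (log2 difference -0.28, adjusted p = 0.464). In both genes the groups did not overlap, and neither passed the threshold.

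Tpm1, the third gene that fell, encodes tropomyosin 1, which coats actin filaments. Tpm1 (chr9:67022590-67049406, mm10, minus strand, protein-coding) had 1786, 1887 and 1871 TPM with medium, against 2173, 2132 and 2074 TPM untreated. The groups did not overlap. The log2 fold change was -0.20 ± 0.04 (SE; limma adjusted p = 0.0406), a level 0.87 times that of untreated cells.

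Rpl28-ps1 is a processed pseudogene of the ribosomal protein gene Rpl28 (chr1:128038569-128038982, mm10, plus strand) inside Zranb3. It had 325, 323 and 310.0 TPM with medium, against 419.8, 439 and 422 TPM untreated, a log2 fold change of -0.42 ± 0.07 (SE; limma adjusted p = 0.0238). Reads of near-identical copies can be split between Rpl28 and its pseudogenes, so this value is uncertain. Rpl28 itself had 313, 347 and 357 TPM with medium and 333, 339 and 313 TPM untreated, with a log2 difference of 0.04 (adjusted p = 1).

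**Figure D3:**
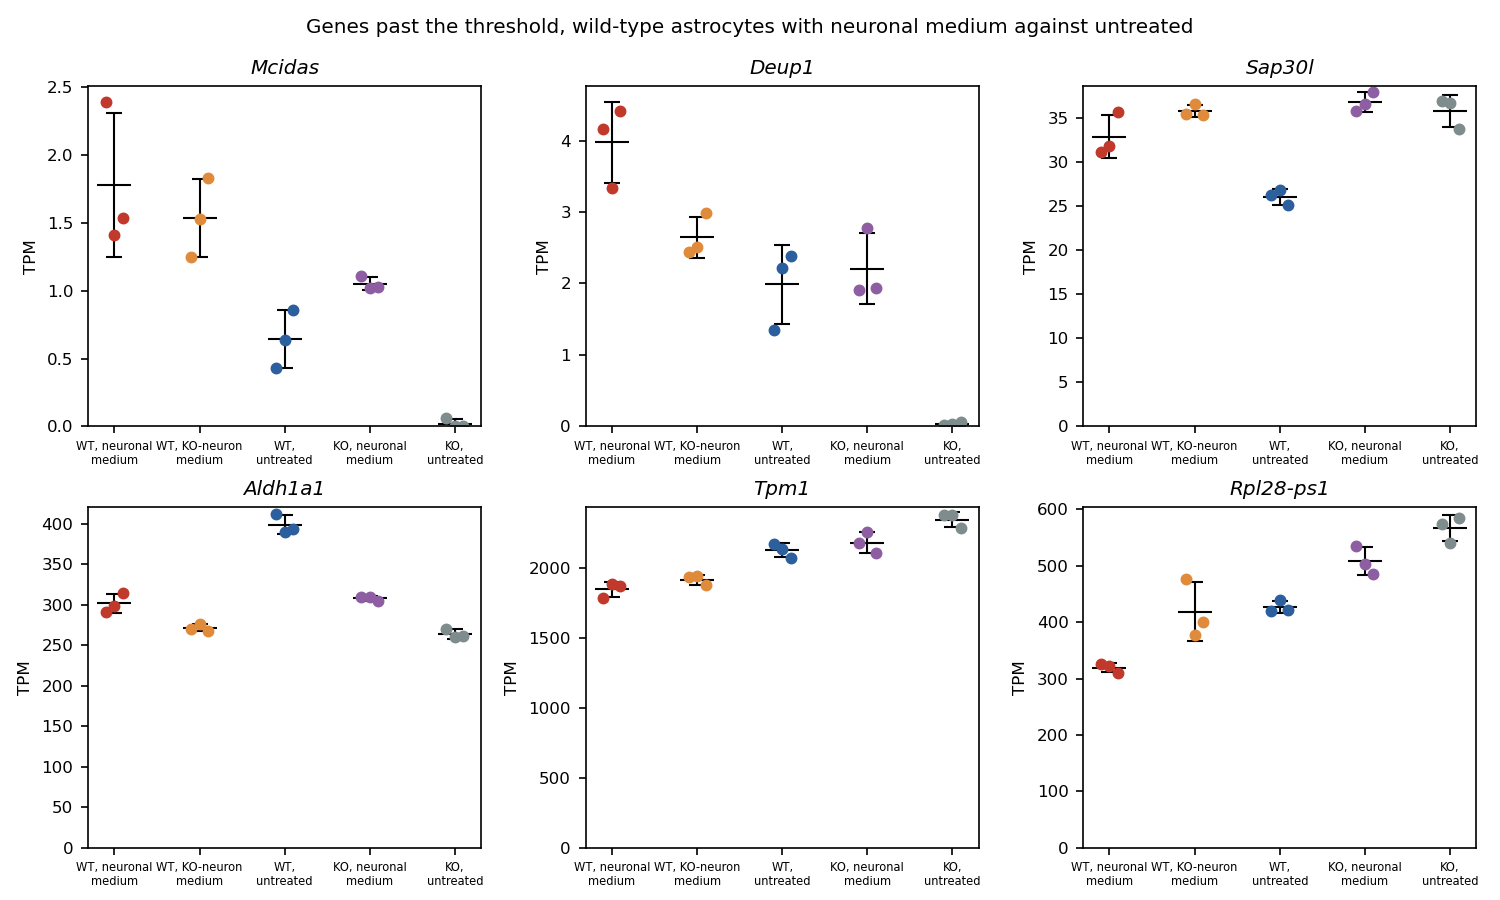
Each panel shows 1 of the 6 genes past the threshold in wild-type astrocytes, with TPM on the vertical axis from 0. Points are single libraries, the long dash is the group mean and the bars are the SD over 3 libraries, for wild-type cells with neuronal medium, with medium of Apoe knockout neurons and untreated, then Apoe knockout cells with neuronal medium and untreated. Wild-type cells with medium and untreated wild-type cells do not overlap in any panel.

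Tpm1 was the one member past the threshold among 21 listed targets of SRF and YAP, all of which were tested. All 21 had a log2 fold change below 0, as did 40.7% of all genes tested, and the list median was -0.18, beside 0.03 over all genes. In 16 of the 21, every library with medium was below every untreated library, which was so for 6.2% of all genes. At an unadjusted p under 0.05, 11 of the 21 were lower, as were 2.82% of all genes. Leaving out any 1 of the 6 libraries left 20 or 21 members below 0. With libraries scaled by median ratios, 8297 of the 16161 genes tested lay below 0, as did all 21 members. The list median was then -0.21 and Tpm1 did not pass (limma adjusted p = 0.608). The summed level of the list was 21481 to 23533 TPM with medium and 24719 to 26641 TPM untreated.

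The calponins and smooth muscle actin genes showed the pattern at high levels. Tagln, the actin-binding protein transgelin, had 2353, 2656 and 2649 TPM with medium and 3124, 3136 and 2886 TPM untreated (log2 difference -0.26 ± 0.07, SE; limma adjusted p = 0.309). Acta2, smooth muscle actin, had 3054, 3407 and 3410.1 TPM with medium and 4045, 4133 and 3743 TPM untreated (log2 difference -0.27 ± 0.09, SE; adjusted p = 0.447). Cnn2, calponin 2, had 469, 515 and 521 TPM with medium and 633, 621 and 578 TPM untreated (log2 difference -0.28 ± 0.06, SE; adjusted p = 0.152). In these genes the groups did not overlap, and the first library with medium was the lowest of the 6.

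Cytoplasmic actins, which every cell uses, lay nearer to 0. Actb had 3489, 3764 and 3778 TPM with medium and 4049, 4285 and 3858 TPM untreated (log2 difference -0.14, limma adjusted p = 0.704). Actg1 had 3599, 3839.8 and 3909 TPM with medium and 4079, 4266 and 3887 TPM untreated (log2 difference -0.11, adjusted p = 0.838), with overlapping groups. Srf itself had 32.3, 39.5 and 39.1 TPM with medium and 35.4, 38.1 and 39.7 TPM untreated (log2 difference -0.03, 95% interval -0.26 to 0.19). The YAP targets Ankrd1 and Ccn1 had groups that overlapped.

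Promoters of these genes are shown for their CArG box, the element SRF binds, written CC followed by 6 bases that are A or T and then GG. It lies within the 250 bases before a start in 1.47% of 32851 mouse promoters, and in 5 of the 16 listed genes with a RefSeq promoter here (Actg1, Cnn2, Myl9, Srf and Vcl). The genes were listed as known targets of SRF and YAP, so a larger share among them follows from that choice. The presence of the box is a description and no evidence of binding. The box is in capitals, and Tpm1 is shown beside them because it passed the threshold. The Tpm1 window holds no CArG box, and its capitals mark a CCAAT box on the other strand, a motif in 33.8% of promoters. Sequences are from RefSeq, build GRCm38.p6, 5′ to 3′ on the gene's strand: chr9:67049214-67049363 (minus) for Tpm1, chr11:120348496-120348645 (minus) for Actg1, chr10:79988450-79988599 (plus) for Cnn2, chr2:156775214-156775463 (plus) for Myl9, chr17:46556163-46556312 (minus) for Srf and chr14:20929148-20929397 (plus) for Vcl.
Tpm1: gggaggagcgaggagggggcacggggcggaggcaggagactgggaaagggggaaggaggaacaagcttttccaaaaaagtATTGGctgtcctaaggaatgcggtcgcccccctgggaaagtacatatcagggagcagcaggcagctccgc
Actg1: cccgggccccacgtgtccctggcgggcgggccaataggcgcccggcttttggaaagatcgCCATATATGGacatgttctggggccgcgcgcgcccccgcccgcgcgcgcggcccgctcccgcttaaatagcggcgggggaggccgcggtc
Cnn2: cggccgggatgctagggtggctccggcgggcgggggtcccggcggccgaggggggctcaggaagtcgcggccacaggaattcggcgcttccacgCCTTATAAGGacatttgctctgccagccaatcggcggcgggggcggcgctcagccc
Myl9: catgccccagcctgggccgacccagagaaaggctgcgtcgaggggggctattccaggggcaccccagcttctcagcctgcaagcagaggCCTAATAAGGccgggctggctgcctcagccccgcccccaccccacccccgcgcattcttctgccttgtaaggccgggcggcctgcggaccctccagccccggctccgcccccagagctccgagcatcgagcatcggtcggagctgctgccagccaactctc
Srf: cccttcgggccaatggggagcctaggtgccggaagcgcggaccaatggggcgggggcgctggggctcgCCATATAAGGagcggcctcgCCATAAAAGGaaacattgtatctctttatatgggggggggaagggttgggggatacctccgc
Vcl: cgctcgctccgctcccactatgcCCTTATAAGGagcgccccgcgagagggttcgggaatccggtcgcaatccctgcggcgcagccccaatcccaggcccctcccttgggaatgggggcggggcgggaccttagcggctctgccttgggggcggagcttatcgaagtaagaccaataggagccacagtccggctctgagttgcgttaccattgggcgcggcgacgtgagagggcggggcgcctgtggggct
The log2 differences of the 5 genes with a box were -0.11 for Actg1, -0.28 for Cnn2, -0.25 for Myl9, -0.03 for Srf and -0.18 for Vcl, and none passed the threshold.

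**Figure D4:**
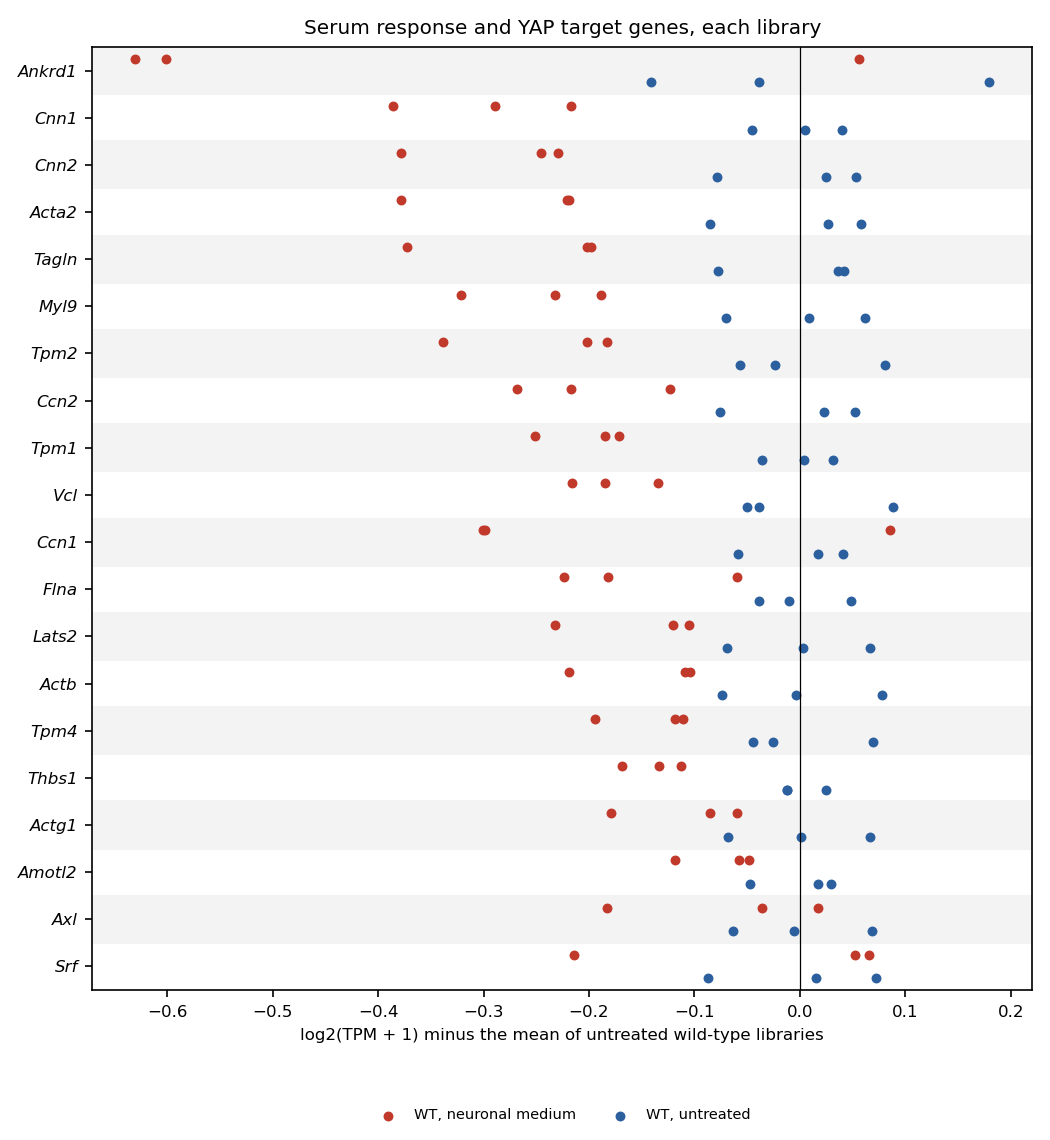
Each point is 1 wild-type library and each of the 20 rows 1 listed target of SRF or YAP, ordered by fold change, with log2(TPM + 1) minus the mean of the untreated libraries on the horizontal axis. Libraries with neuronal medium lie left of untreated libraries in 15 of the 20 rows, among them Cnn1, Cnn2, Tagln, Acta2 and Tpm1.

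Matrix genes and markers of mural cells and fibroblasts lay on the same side as the actin genes, with no member past the threshold. Of 17 elastic fibre genes 15 lay below 0, as did 40.7% of all genes tested, with a median of -0.16. In 12 of the 17 every library with medium was below every untreated one, which was so for 6.2% of all genes. Eln, elastin, had 69.5, 70.3 and 68.2 TPM with medium and 89.8, 98.5 and 87.1 TPM untreated (log2 difference -0.40 ± 0.10, SE; limma adjusted p = 0.191). Of 20 collagen chains 17 lay below 0, with a median of -0.08. Col1a1 had 319, 333 and 346 TPM with medium and 404, 408 and 375 TPM untreated (log2 difference -0.25, adjusted p = 0.481).

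Of 19 mural cell and fibroblast markers, 14 were tested, 11 lay below 0 and the median was -0.19. Acta2, Tagln and Col1a1 belong to this list too. Its summed level was 6621 to 7309 TPM with medium and 7989 to 8720 TPM untreated, with no overlap. The part of such cells in the lower actin and matrix values was not tested. Myh11, the smooth muscle myosin, was low, at 1.14, 1.05 and 1.45 TPM with medium, against 1.64, 1.46 and 1.61 TPM untreated.

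Target genes of TGF-beta and BMP also lay mostly below 0, 16 of 20 with a median of -0.12. So did a list of EGF receptor ligands and genes of ERK feedback, 17 of 21 with a median of -0.12. Over all genes 40.7% lay below 0, and no member of either list passed the threshold. Lif, a cytokine of the interleukin 6 family, had 6.48, 7.29 and 8.97 TPM with medium and 10.3, 11.6 and 12.4 TPM untreated (log2 difference -0.54, limma adjusted p = 0.399). Dusp4, a phosphatase that acts on ERK kinases, had 6.63, 7.74 and 8.49 TPM with medium and 12.03, 11.2 and 9.62 TPM untreated (log2 difference -0.47, adjusted p = 0.238). The groups did not overlap in either gene. Clcf1, another cytokine that signals through gp130, came nearest to the threshold among all the listed genes that missed it, with 48.7, 46.2 and 47.9 TPM with medium and 56.7, 57.6 and 57.05 TPM untreated (log2 difference -0.26 ± 0.05, SE; adjusted p = 0.0548).

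Of the genes outside the 6, Ass1 and Fabp5 passed the threshold when the fatty acid groups were left out of the fit. Ass1, an enzyme of arginine synthesis, had 209, 231 and 228 TPM with medium and 285, 291 and 269 TPM untreated (log2 difference -0.34 ± 0.07, SE; limma adjusted p = 0.146 with all groups). Fabp5, a fatty acid binding protein, had 172, 176 and 184 TPM with medium and 211, 218 and 205 TPM untreated (log2 difference -0.26 ± 0.07, SE; adjusted p = 0.368). Both were lower in every library with medium. The chemokine Cxcl12 was too, with 21.98, 27.2 and 24.2 TPM with medium and 36.2, 31.7 and 29.8 TPM untreated (log2 difference -0.40, adjusted p = 0.106), and it passed only without the second library with medium. Of 7 listed metallothioneins, zinc transporters and their regulator, 6 lay above 0, as did 58.7% of all genes, with a median of 0.13 and no gene past the threshold. The metallothioneins Mt1 and Mt2 bind zinc and copper. Mt1 had 2334, 2271 and 1904 TPM with medium and 1714, 1901 and 2010.1 TPM untreated (log2 difference 0.21, adjusted p = 0.499), and Mt2 had 3157, 2975 and 2655 TPM with medium and 2444, 2539.5 and 2809 TPM untreated (log2 difference 0.17, adjusted p = 0.616). In both the third library with medium lay within the untreated range.

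The lists of astrocyte homeostasis and the cell cycle also had medians above 0, with no member past the threshold. Of 17 genes for potassium, water and glutamate handling and cell junctions, 16 lay above 0, as did 58.7% of all genes tested, with a median of 0.12. With libraries scaled by median ratios 12 of 17 did, beside 7766 of the 16161 genes tested. Kcnj10, the main potassium channel of astrocytes, had 265, 225 and 237 TPM with medium and 199, 209.9 and 219 TPM untreated (log2 difference 0.21, limma adjusted p = 0.912). Slc1a3, a glutamate transporter, had 266, 235 and 231 TPM with medium and 202, 217 and 228 TPM untreated (log2 difference 0.17, adjusted p = 0.947).

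Of 30 cell cycle genes 26 lay above 0, as did 58.7% of all genes tested, with a median of 0.11. In 13 of the 30 every library with medium was above every untreated one, which was so for 8.66% of all genes. Mki67, the Ki-67 antigen, had 43.5, 32.5 and 42.6 TPM with medium and 35.7, 20.5 and 33.2 TPM untreated, with overlapping groups (log2 difference 0.42 ± 0.25, SE; limma adjusted p = 0.878), and the difference was 0.18 without the second untreated library. Ccnd1, cyclin D1, lay on the other side of 0, with 743, 782 and 825 TPM with medium and 929, 934 and 876 TPM untreated (log2 difference -0.22, adjusted p = 0.372).

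None of Apoe, Plin2, Gfap and Adora2a passed the threshold. Apoe, the main lipoprotein of astrocytes (chr7:19696109-19699188, mm10, minus strand), had 4896, 4773 and 4096 TPM with medium and 4234, 4787 and 5024 TPM untreated (log2 difference -0.03, 95% interval -0.23 to 0.17). Plin2, which coats lipid droplets, had 73.9, 80.95 and 82.4 TPM with medium and 81.2, 87.1 and 84.6 TPM untreated (log2 difference -0.09, 95% interval -0.21 to 0.03). Gfap, whose levels are given above, had a log2 difference of 0.16 (95% interval 0.00 to 0.33; limma adjusted p = 0.78). Adora2a, an adenosine receptor, was under 1 TPM in all 6 libraries, with 0.50, 0.11 and 0.31 TPM with medium and 0.18, 0.20 and 0.59 TPM untreated, levels at which log2(TPM + 1) bounds no fold change.

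No lipid, reactive or stress list held a gene past the threshold. The median over 21 cholesterol synthesis genes was -0.03. The lists of 13 lipid droplet genes, 18 fatty acid synthesis genes and 25 genes of fatty acid oxidation that were tested had medians of -0.02, 0.01 and 0.02. The 13 pan-reactive, 12 A1 and 11 A2 astrocyte genes tested had medians of -0.02, 0.01 and -0.08, and the 34 stress response genes -0.05. In the pan-reactive list Vim, vimentin, had 7471, 7423 and 7612 TPM with medium and 7184, 7688 and 7368 TPM untreated (95% interval -0.07 to 0.10), and Timp1 had 77.8, 89.8 and 83.3 TPM with medium and 105, 103 and 95.7 TPM untreated (log2 difference -0.27, limma adjusted p = 0.395). Over 47 lists, leaving out that of multiple motile cilia, 785 distinct genes were tested and 2 passed the threshold, beside 0.0371% of all genes tested. At an unadjusted p under 0.05 there were 92 of the 785, beside 6.38% of all genes. Neuron markers had a median of 0.00. The largest difference among them was in Gad1, an enzyme of GABA synthesis, which had 2.52, 0.44 and 4.42 TPM with medium and 0.75, 0.68 and 0.63 TPM untreated, with the second library with medium below all untreated ones. It passed the threshold without that library (log2 difference 1.37, limma adjusted p = 0.0373) and in no other alternative.

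**Figure D5:**
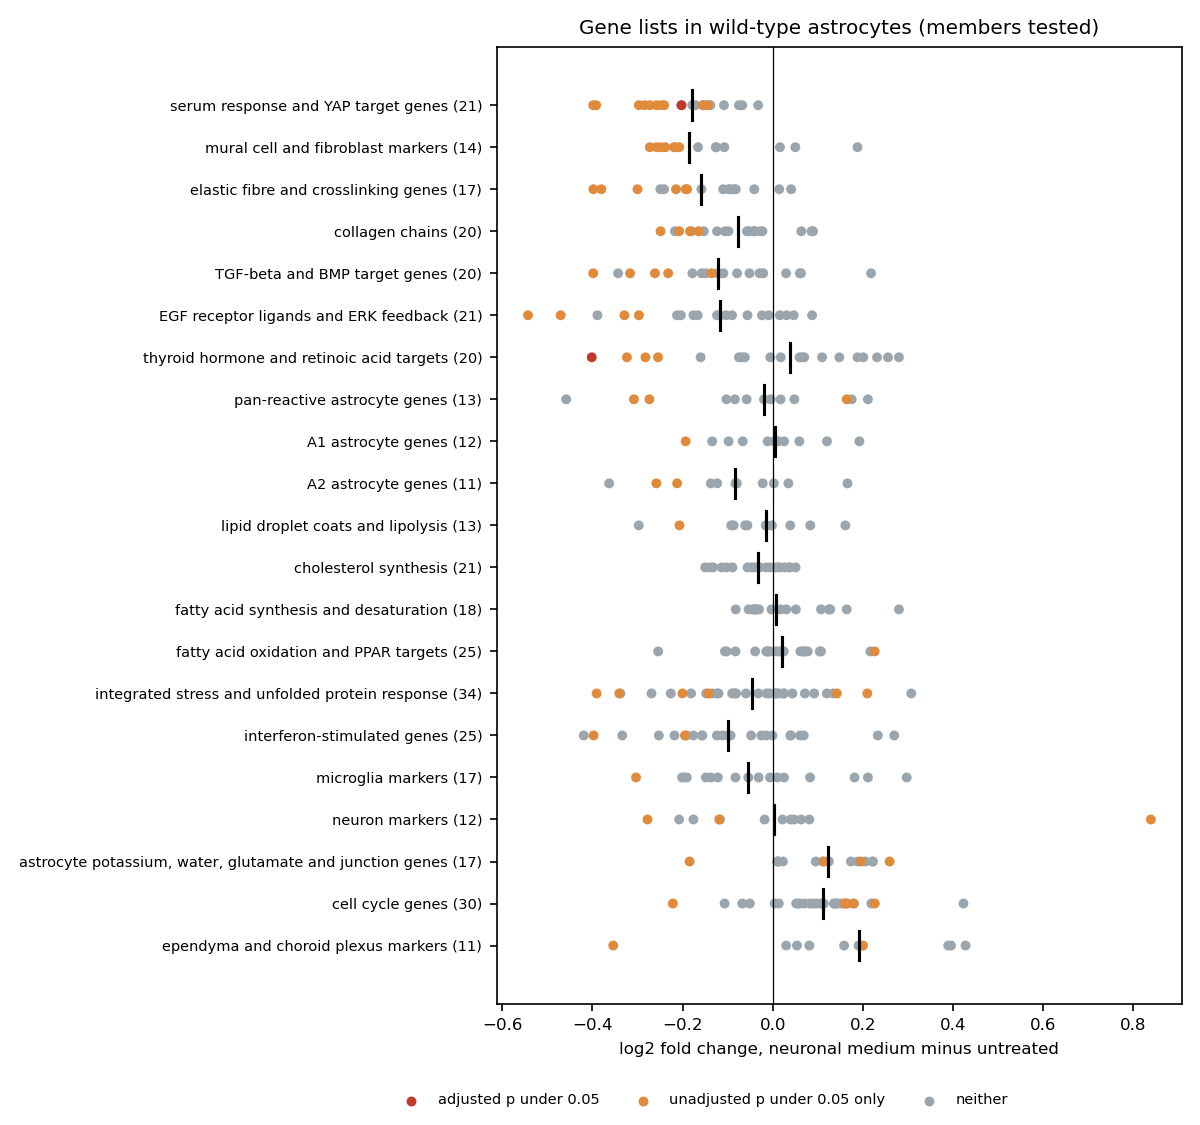
Each point is 1 tested gene and each row 1 of 21 gene lists (number of members tested in brackets), with the log2 fold change of neuronal medium minus untreated in wild-type astrocytes on the horizontal axis and the list median as a black bar. Red marks an adjusted p under 0.05, orange an unadjusted p under 0.05 alone, and red appears for Tpm1 among serum response and YAP targets and Aldh1a1 among retinoic acid genes.

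Set directly against medium of Apoe knockout neurons on the same wild-type astrocytes, neuronal medium differed in 229 genes (1.42% of those tested), 73 of them (0.452%) higher with neuronal medium and 156 (0.965%) lower. Of those lower, the ones described here are known as genes of macrophages and other leukocytes, and genes with other roles, such as the dicarboxylate transporter Slc13a3, lay among the largest differences too. Adgre1, the F4/80 antigen, had 9.71, 10.3 and 7.16 TPM with neuronal medium, against 53.6, 58.9 and 57.5 TPM with knockout-neuron medium (log2 difference -2.53 ± 0.22, SE; limma adjusted p = 1.85e-06), beside 8.89, 12.1 and 9.42 TPM untreated. Cd52, a leukocyte surface protein, had 21.3, 22.1 and 21.5 TPM with neuronal medium, against 113, 97.6 and 130.3 TPM with knockout-neuron medium (log2 difference -2.33 ± 0.24, SE; adjusted p = 2.06e-05), beside 25.2, 17.5 and 25.8 TPM untreated. Lyz2, lysozyme, had 166, 173 and 137 TPM with neuronal medium, against 356, 329.9 and 354 TPM with knockout-neuron medium (log2 difference -1.13 ± 0.17, SE; adjusted p = 0.000664).

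In these genes the values with neuronal medium and untreated lay together, and those with knockout-neuron medium stood above both. Of 17 microglia markers tested 5 were lower with neuronal medium, beside 0.965% of all genes tested, and the summed level of the list was 562 to 657 TPM with neuronal medium and 693 to 776 TPM with knockout-neuron medium. Of 25 interferon-stimulated genes 4 were lower, against the same share. Among the genes higher with neuronal medium, Ednrb, the endothelin B receptor, had 31.9, 26.04 and 25.8 TPM with neuronal medium, against 15.97, 17.4 and 19.1 TPM with knockout-neuron medium (log2 difference 0.64 ± 0.14, SE; limma adjusted p = 0.02).

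Of the 6 genes changed by neuronal medium, 5 did not pass the test between the media. Mcidas had 1.25, 1.53 and 1.83 TPM with knockout-neuron medium, Sap30l 35.4, 36.6 and 35.4 TPM, Aldh1a1 271, 277 and 268 TPM and Tpm1 1932, 1939.9 and 1875 TPM. The direct log2 difference, neuronal medium minus knockout-neuron medium, had a 95% interval of -0.13 to 0.37 for Mcidas, 0.18 to 0.71 for Deup1, -0.23 to -0.01 for Sap30l, 0.01 to 0.29 for Aldh1a1 and -0.13 to 0.02 for Tpm1. Rpl28-ps1 was the 1 of the 6 past the threshold, with 325, 323 and 310.0 TPM with neuronal medium, against 477, 377 and 401 TPM with knockout-neuron medium (log2 difference -0.38 ± 0.07, SE; limma adjusted p = 0.00352). The media share the untreated libraries as their control, so their changes against untreated cells are not independent.

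Apoe, the gene knocked out, was at 112.5, 113 and 118 TPM in knockout astrocytes with neuronal medium and at 40.4, 47.1 and 43.5 TPM in untreated knockout astrocytes, below all 15 wild-type libraries, of which the lowest had 2221 TPM. The title of the third untreated knockout library carries the word mix, which the labels do not explain. Apoe knockout astrocytes with neuronal medium differed from untreated ones in 5049 genes (31.2%), 3019 (18.7%) higher with medium and 2030 (12.6%) lower. These libraries share none with the wild-type comparison. By root mean square log2 difference, knockout libraries with medium lay 0.582 to 0.608 from untreated knockout libraries. They lay 0.540 to 0.565 from untreated wild-type libraries. Untreated knockout libraries lay 0.771 to 0.798 from untreated wild-type ones. The part of culture or cell mix in the untreated knockout group was not tested. The test of the difference, the change in wild-type minus the change in knockout astrocytes, passed for 2995 genes (18.5%), 1123 (6.95%) with a higher and 1872 (11.6%) with a lower value in wild type. Without the third untreated knockout library the counts were 4347 and 2610. Gfap had 321, 318 and 337 TPM in knockout astrocytes with medium, against 70.6, 71.5 and 70.3 TPM in untreated knockout astrocytes, a log2 fold change of 2.18 ± 0.08 (SE; limma adjusted p = 1.22e-14). The wild-type change in Gfap was lower than that by 2.02 on the log2 scale (difference -2.02 ± 0.11, SE; adjusted p = 4.9e-11).

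Mcidas and Deup1 rose in knockout astrocytes too. Mcidas had 1.11, 1.02 and 1.03 TPM in knockout astrocytes with medium, against 0.06, 0 and 0 TPM in untreated ones. Deup1 had 1.91, 2.78 and 1.93 TPM in knockout astrocytes with medium, against 0.02, 0.03 and 0.06 TPM in untreated ones. On the log2(TPM + 1) scale the changes were 1.01 ± 0.12 for Mcidas (SE; limma adjusted p = 8.68e-07) and 1.62 ± 0.13 for Deup1 (SE; adjusted p = 1.61e-09). On that scale the wild-type change was the smaller one for Deup1 (difference -0.87, adjusted p = 0.00119), and the difference missed the threshold for Mcidas (-0.26, 95% interval -0.61 to 0.09). With untreated knockout levels of Mcidas and Deup1 near 0 TPM, that scale bounds no fold change, so these differences do not compare folds between genotypes. Ependymal markers moved with them in the knockout cells, 10 of 11 rising, beside 18.7% of all genes, with a summed level of 310 to 339 TPM with medium and 132 to 136 TPM untreated. Of the 11, 10 had a wild-type change below the knockout change past the threshold, beside 11.6% of all genes.

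Aldh1a1 and Sap30l behaved differently in the genotypes. Aldh1a1 had 309, 309.7 and 305 TPM in knockout astrocytes with medium, against 270.5, 259.7 and 261 TPM in untreated ones, a rise of 0.22 ± 0.07 (SE; limma adjusted p = 0.016) where the wild-type cells showed a fall, with a difference of -0.62 (adjusted p = 6.31e-05). Sap30l had 35.8, 36.7 and 38.01 TPM in knockout astrocytes with medium and 36.9, 36.8 and 33.7 TPM in untreated ones (log2 difference 0.04, adjusted p = 0.614), and the wild-type change was higher by 0.28 (adjusted p = 0.00937). Tpm1 fell in the knockout too, with 2179.9, 2256 and 2104 TPM with medium, against 2375, 2381 and 2282 TPM untreated (log2 fold change -0.11, adjusted p = 0.0288), and the difference between genotypes was -0.10 (95% interval -0.20 to 0.01).

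Of the 21 SRF and YAP targets, 5 rose and 4 fell in knockout astrocytes, near the shares of all genes (18.7% and 12.6%). By the test of the difference, 8 of the 21 had a wild-type change below the knockout change and 2 above it, beside 11.6% and 6.95% of all genes. Cnn2 had 539, 541 and 481 TPM in knockout astrocytes with medium, against 437, 439.7 and 447 TPM in untreated ones, a rise of 0.24 (limma adjusted p = 0.00524), with a difference between genotypes of -0.52 (adjusted p = 0.000163). Of the 30 cell cycle genes, 26 fell and 1 rose in knockout astrocytes, beside 12.6% and 18.7% of all genes, and 25 had a wild-type change above the knockout change, beside 6.95%. Mki67 had 20.6, 22.8 and 30.4 TPM in knockout astrocytes with medium, against 57.9, 59.5 and 60.2 TPM in untreated ones (log2 fold change -1.25, adjusted p = 0.000534). For cholesterol synthesis, 17 of 21 genes rose in knockout astrocytes with a median of 0.68, beside 18.7% of all genes, and 16 had a lower wild-type change, beside 11.6%.

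Wild-type astrocytes with neuronal medium stood apart from those given fatty acids. Against oleic acid 9912 genes differed (61.3%), 30.6% higher with neuronal medium and 30.7% lower. Against palmitic acid 10001 genes differed (61.9%), 35.5% higher and 26.4% lower. Plin2 averaged 79.1 ± 4.54 TPM with neuronal medium, against 183 ± 11.1 TPM with oleic acid and 327 ± 19.04 TPM with palmitic acid (SD, n = 3 each). Gfap averaged 1311 ± 93.4 TPM with neuronal medium, against 564 ± 27.3 TPM with oleic acid and 279 ± 40.4 TPM with palmitic acid. Mcidas averaged 1.78 ± 0.53 TPM with neuronal medium, against 0.03 ± 0.05 TPM with oleic acid and 0.04 ± 0.05 TPM with palmitic acid, each difference past the threshold.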

How the data were processed

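RNA was sequenced from astrocytes and brain, and the 27 astrocyte libraries of the series were used. Illumina TruSeq libraries were made from total RNA, per the labels' protocols, whose extraction text describes brain and not cultured cells. The tools HISAT2, StringTie and RSEM and the build mm10 come from the submitters' processing notes, which give neither their versions nor what each was used for here. The authors deposited TPM values per gene for the astrocytes, a unit read here from the values. TPM divides by gene length and scales each library to about the same total, so library depth is unknown, no counting interval can be given, and a change in abundant genes shifts the rest. Brain tables were not used.

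Samples were grouped by their treatment and tissue labels. Genes reaching 1 TPM in at least 3 libraries entered limma 3.58.1 (R 4.3.3) as log2(TPM + 1), with a trended variance prior, all 9 groups sharing 1 estimate of spread, and Benjamini-Hochberg adjustment over all genes tested at 0.05. Fold changes are on the log2(TPM + 1) scale and understate changes of low genes. The script was tested on simulated data. Alternatives were median-ratio scaling, a pseudocount of 0.1, no filter, a fit of the groups compared alone, a replicate block and leaving out each library, plus a fit without the fatty acid groups, chosen after seeing the data.

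The members and lists were chosen with earlier results of these data known. The rule for named genes takes Apoe, Adora2a, Gfap and Plin2, the largest changes past the threshold with a level above the median, no overlap between groups and no pseudogene, and the most abundant members of lists. It named Sap30l, Aldh1a1 and Tpm1, and Mcidas, Deup1, Rpl28-ps1 and most uncalled list members were chosen after their values were seen. Positions are from GENCODE M21, which held 52093 of 53700 gene identifiers. Some genes that count in the lists are not reported by name here.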

Additional observations from a re-analysis of the deposited data

Results flagged for a closer look

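The change with neuronal medium differed between wild-type and Apoe knockout astrocytes, by limma's test of the difference itself, in 2995 genes. Values here are wild-type change minus knockout change on the log2 scale, for some of the genes described above. They were -1.40 for Apoe, -2.02 for Gfap, 0.28 for Sap30l, -0.87 for Deup1 and -0.62 for Aldh1a1. Larger terms included -3.21 for Eln, 1.91 for Timp1, 1.87 for Lyz2 and 1.68 for Mki67. The Apoe value rests on the low levels left in knockout astrocytes, given above.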

How the results depend on the processing

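Neuronal medium against untreated gave 6 genes, and 2 with median-ratio scaling (Mcidas and Epb41l4aos), 3 with a pseudocount of 0.1, 30 without a filter on low values, 0 with only the groups compared (1504 at an unadjusted p under 0.05), and 0 to 11 with 1 library left out. It was 0 without the first (764 at an unadjusted p under 0.05) or the third (985) library with medium or the second untreated library (870), 1 without the first untreated library, 3 without the third untreated library and 11 without the second with medium. Without the fatty acid groups, chosen after seeing the data, it gave 3 (Aldh1a1, Ass1 and Fabp5). Each of the 6 genes kept its sign under all 12 alternatives and passed in 3 to 5 of them. Neuronal medium against knockout-neuron medium gave 229 genes, 141 with median-ratio scaling, 128 with a pseudocount of 0.1, 95 with only the groups compared, 106 to 167 with 1 library left out, and 477 without the fatty acid groups. The counts in knockout astrocytes, for the difference between genotypes and against either fatty acid stayed within 1.5 times of their value under every alternative run. Higher and lower genes in knockout astrocytes were 3019 and 2030, and 2538 and 2256 with median-ratio scaling. Against palmitic acid they were 5742 and 4259, and 5070 and 4858 with that scaling. For neuronal medium against untreated wild-type cells, 9488 genes lay above 0 and 6574 below, and 7766 and 8297 with that scaling. The shares of 58.7% and 40.7% set beside the lists depend on that choice. Some uncalled changes near 0 turned their sign, and the cause was not tested: Vim was -0.017 with median-ratio scaling. With 1 library left out, log2 differences ranged from -0.10 to 0.050 for Apoe, -0.12 to 0.12 for Adora2a, -0.081 to 0.059 for Srf, -0.0048 to 0.044 for Vim and -0.23 to 0.041 for Cd52.

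Library numbers did not pair the samples: deviations of same-numbered libraries with medium and untreated correlated at -0.013 to 0.001. With the replicate number as a block the count was 7, the 6 genes and Epb41l4aos. Depth is unknown, and genes near 1 TPM are the least secure.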

Other observations

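Without the filter on low values, 30 genes passed the threshold, 21 of them under that filter. Many of the 21 are predicted genes at low levels, and the genes given here were chosen after their values were seen. Cfap65 had 1.02, 0.63 and 0.73 TPM with neuronal medium, against 0.32, 0.36 and 0.38 TPM in untreated wild-type astrocytes. Dnaaf1, which assembles dynein arms, had 1.02, 0.84 and 0.69 TPM with medium, against 0.20, 0.35 and 0.44 TPM untreated. Wdr49 had 1.20, 0.84 and 1.33 TPM with medium, against 0.54, 0.59 and 0.57 TPM untreated. The groups did not overlap in these genes. Kcne1, a potassium channel subunit, was lower, with 0.20, 0.18 and 0.30 TPM with medium, against 0.92, 1.11 and 1.16 TPM untreated. At such levels a few reads set a value, and the depth behind them is unknown.

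The second untreated wild-type library had 5.52% of its TPM in mitochondrial genes, beside 6.61% to 6.83% in the other 5 libraries with medium or untreated.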
